A study of Bos taurus with 14 samples.

Results

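CCR3, ALOX15 and CCL24, genes long associated with eosinophils, were followed across bovine granulocytes and endometrial stromal cells exposed to interferon tau. Their probes were found by name on the array: probe ABR1958 for CCR3, and every probe whose annotation in the scanner files names ALOX15 or CCL24. This gave 3 genes of 6691 with a symbol on the array, through 4 of its 15208 non-control probes, with 1 probe for CCR3, 2 for ALOX15 and 1 for CCL24.

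The 14 samples formed 4 groups of Bos taurus cells, each incubated for 2 h and each measured on 1 single-colour array with Cy3-labelled RNA. They were 4 samples of granulocytes with interferon tau (IFNT), 4 of granulocytes with phosphate-buffered saline (PBS), 3 of bovine endometrial stromal cells (BES) with IFNT and 3 of BES with PBS. IFNT was added at 1 mg/mL as labelled, a high value for an interferon, and whether the unit is right could not be checked. The labels name no breed, age or animal, nor how the granulocytes were isolated, nor the origin of the replicates. The p-values therefore measure the spread between these samples, which may be technical. The granulocyte arrays shared 1 slide and the BES arrays a different one, which means that cell type and slide cannot be told apart. On the granulocyte slide the IFNT samples filled array row 2 and the PBS samples array row 1, so array row and treatment cannot be told apart there.

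CCR3 is the receptor through which eotaxins draw eosinophils, and also basophils, out of blood and into tissue. CCL24 is one of the eotaxins, secreted mainly by macrophages and other myeloid cells, and it signals through CCR3. ALOX15 is a lipoxygenase that inserts oxygen into polyunsaturated fatty acids such as arachidonic acid. It is abundant in human eosinophils, and in human monocytes it is induced by interleukin 4 and interleukin 13. IFNT, a type I interferon, is the signal by which a ruminant embryo makes its presence known to the mother.

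The probe sequences are shown because each gene is seen only through its probe. All 4 were 60 bases long, and the CCR3 probe is given whole. For the others a stretch of 30 bases is given. The files do not say which part of the transcript any of the 4 probes lies in. Capitals mark AATAAA, the hexamer of a polyadenylation signal, found at base 45 of the second ALOX15 probe and in none of the others.
CCR3, ABR1958, bases 1 to 60: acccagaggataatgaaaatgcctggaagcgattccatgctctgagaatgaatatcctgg
ALOX15, ABR377, bases 1 to 30: ggtatctggcctcagtgtttttcccaaagg
ALOX15, A_73_102783, bases 31 to 60: ttccaaggaagaaaAATAAAgatgctttcc
CCL24, A_73_114373, bases 1 to 30: tcatttgtctgtcaagtgtagagggacaca

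The longest run of bases that any of these 60-base probes shared with another probe on the array was 14 for both ALOX15 probes, 13 for CCR3 and 12 for CCL24. The CCR3 probe shared at most 6 bases in a row with the probes of the related receptors CCR1, CCR4, CCR7, CCR8 and CCRL2. Probes were compared only with each other, so whether any of them matches the transcript of another gene was not tested. GC content was 45.0% for CCR3, 41.7% for CCL24, 43.3% for ABR377 and 35.0% for A_73_102783. The gene names rest on different evidence. ABR377 carries the RefSeq accession of bovine ALOX15, for which RefSeq lists ALOX12 as an older name. The CCR3 and CCL24 probes carry the gene numbers of bovine CCR3 and CCL24, and A_73_102783 is an expressed sequence tag described as similar to human ALOX15. A separate gene now called ALOX12 has its own probe.

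In granulocytes with IFNT, CCR3 stood at 39.5% and CCL24 at 32.5% of their levels with PBS. ALOX15 was lower by a small margin, at 86.2% of its PBS level. In BES no change passed the test for ALOX15 or CCL24, and CCR3 was not well above background on any array. The second ALOX15 probe was not well above background on any of the 14 arrays and gave no measurement of ALOX15. Levels below are log2 values of the processed signal relative to the 75th percentile of the same array, so a level of 0 equals that percentile. Changes are differences of these levels, IFNT minus PBS. Levels of different probes cannot be compared with each other.

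CCR3, the receptor, had log2 levels of -1.08, -0.89, -1.10 and -1.21 in IFNT-treated granulocytes, against 0.27, 0.30, 0.35 and 0.16 in PBS-treated granulocytes. All 4 IFNT samples lay below all 4 PBS samples, with a gap of 1.06 between the nearest of them. CCR3 fell by 1.34 on the log2 scale (SE 0.07, n = 4 against 4; 95% interval -1.51 to -1.17; limma adjusted p 1.6e-06), a 2.53-fold decrease. The separation was already present in the unscaled signal, with an intensity of 505 to 696 in IFNT samples and 1219 to 1806 in PBS samples.

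CCL24, the ligand, had log2 levels of -2.47, -2.28, -2.27 and -2.42 in IFNT-treated granulocytes, against -0.85, -0.80, -0.59 and -0.72 in PBS-treated granulocytes. The groups were separated by 1.42, and the spread within each was small (SD 0.10 with IFNT and 0.11 with PBS, n = 4 each). CCL24 fell by 1.62 (SE 0.07; 95% interval -1.79 to -1.45; limma adjusted p 4.6e-07), a 3.07-fold decrease. Its unscaled intensity was 217 to 266 with IFNT and 560 to 902.5 with PBS.

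ALOX15, the enzyme, had log2 levels on probe ABR377 of 3.35, 3.53, 3.48 and 3.54 in IFNT-treated granulocytes, against 3.67, 3.73, 3.64 and 3.72 in PBS-treated granulocytes. The scaled groups did not overlap, but the gap between them was only 0.09. The unscaled intensities overlapped, at 12194 to 14948 with IFNT and 12847 to 19640 with PBS. ALOX15 fell by 0.21 (SE 0.06; 95% interval -0.34 to -0.09; limma adjusted p 0.0133). No spot of the probe was saturated.

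**Figure D1:**
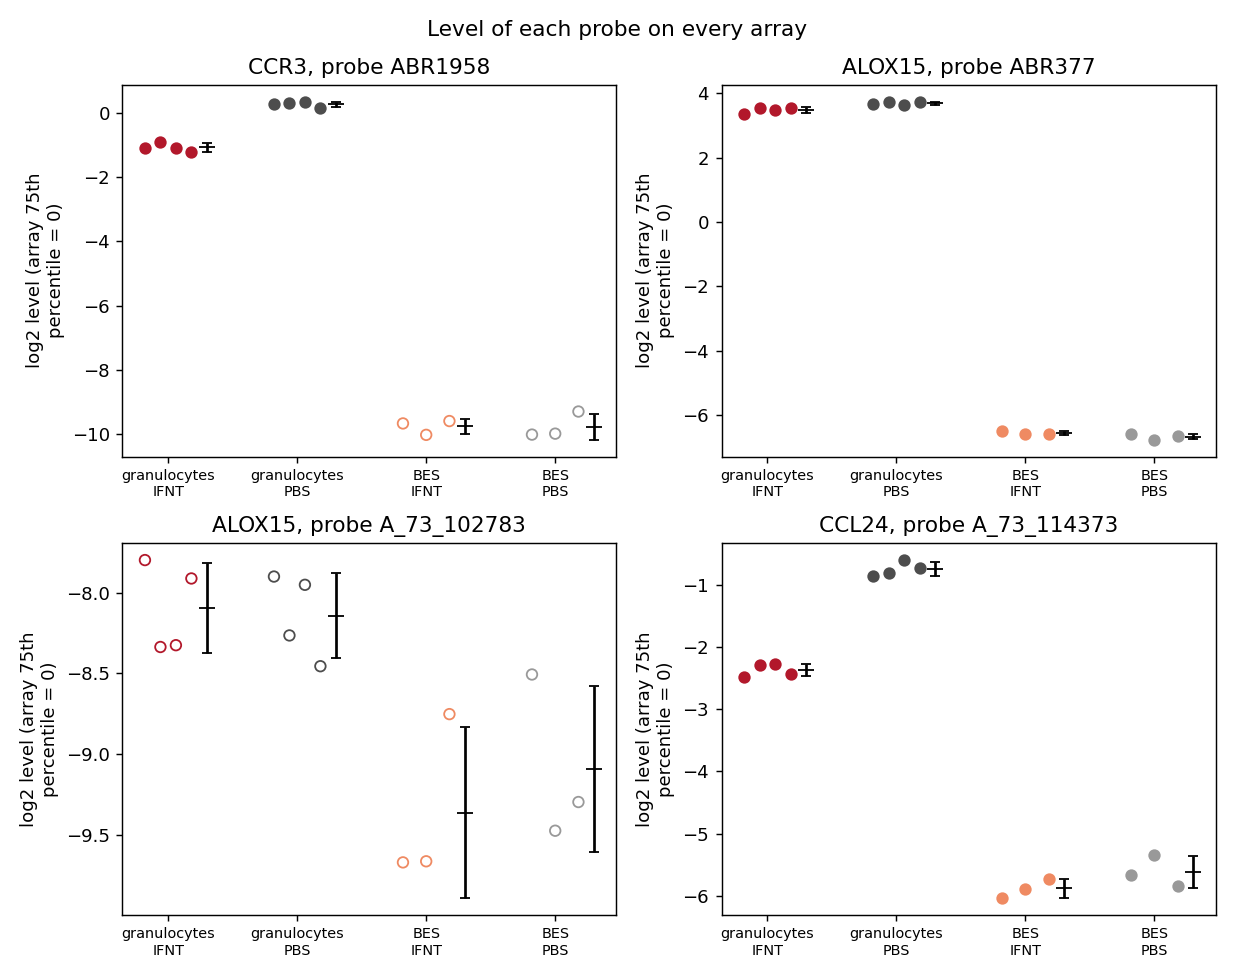
Log2 level of each of the 4 probes on every array (75th percentile of the array = 0), by group; filled points were well above background, open points were not, and the bar gives the mean and SD of the group. CCR3 and CCL24 show a gap of over 1 log2 unit between IFNT and PBS granulocytes, ALOX15 on ABR377 a gap of 0.09, and A_73_102783 only open points.

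These falls have to be read against a broad response. Among the 10379 probes that could be tested in granulocytes, 27.4% were called lower (adjusted p below 0.05) and 17.2% higher, 44.6% in all. The groups did not overlap for 43.6%, and for 26.8% every IFNT array lay below every PBS array, as for the 3 members. Size set CCR3 and CCL24 further from the bulk: 0.963% of the probes were called and at least 2-fold lower. By size of change, CCL24 stood 19th and CCR3 41st from the bottom of the 10379 probes, and ALOX15 stood 2884th. The interferon response itself was present in the same granulocytes, with MX1 higher by 2.41 (SE 0.06) and all 15 tested genes of a short interferon-stimulated list called higher. Members and lists were chosen with earlier results of these data known, so these ranks and this count are a description only. In an exact permutation test, two-sided, each of the 3 members gave p = 0.0286, the smallest value that 4 against 4 allows.

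**Figure D2:**
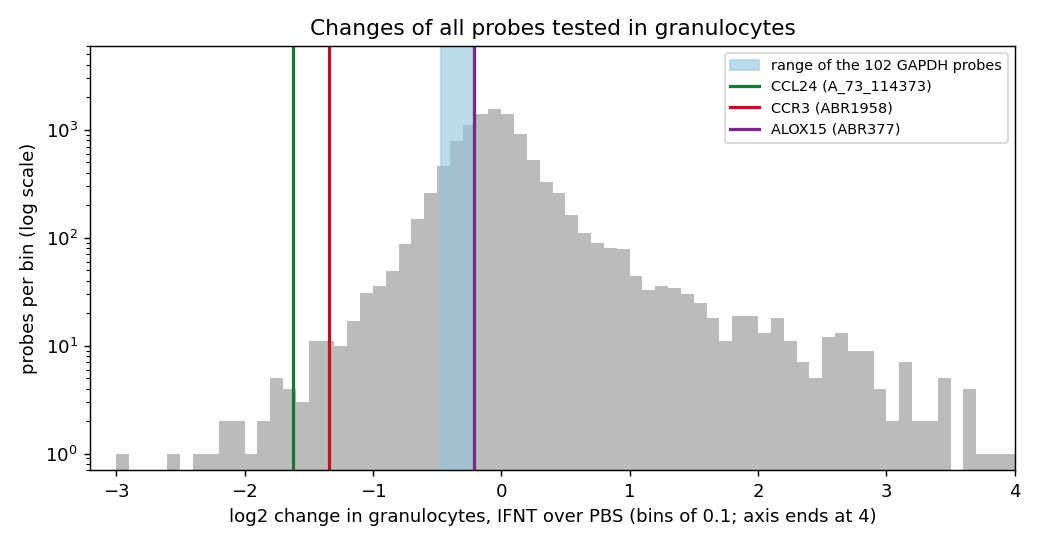
Number of probes (log scale) by log2 change in granulocytes, IFNT over PBS, in bins of 0.1, for the probes tested; vertical lines mark the members and the shaded band the range of the GAPDH probes. CCL24 (-1.62) and CCR3 (-1.34) lie in the sparse lower tail, and ALOX15 (-0.21) lies in the bulk at the edge of the GAPDH band.

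The fall of ALOX15 depends on what the arrays are scaled to. The array carries 102 probes for GAPDH, a glycolytic enzyme often used as a reference, and all of them were lower with IFNT in granulocytes, by log2 changes of -0.47 to -0.20 (median -0.39). Of these, 101 fell at least as far as ALOX15. Scaled on the GAPDH probes, a setting chosen after these values were seen, ALOX15 was higher with IFNT by 0.16 (adjusted p 0.0245). The median change of all tested probes was 0.325 in that setting and -0.05 in the one reported, and the calls were 6696 higher and 436 lower against 1785 higher and 2848 lower. Both scalings shift all probes of an array alike, so the distance of ALOX15 from that median (-0.161) is the same by construction. The distance was -0.13 with quantile normalization and -0.183 with normexp background correction. CCR3 was lower by 0.96 and CCL24 by 1.24 with GAPDH scaling, so both falls remained.

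BES differed from granulocytes in the levels of all 3 genes. CCR3 was not well above background on any of the 6 BES arrays, where its processed signal was a substitute value of 2.52 to 4.89. Set against the lowest signal called well above background on each BES array, CCR3 was at least 214-fold higher in granulocytes than in BES with PBS, and at least 84.3-fold higher with IFNT. These bounds, and those given below for other genes, hold for the processed signal only. With normexp background correction, run on the mean signal with an offset of 50 added throughout, the fitted log2 difference under PBS was 5.84. That is below the bound of 7.74 on the log2 scale of the processed signal. No response of CCR3 to IFNT could be measured in BES.

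ALOX15 was dim in BES, with log2 levels on ABR377 of -6.51, -6.58 and -6.61 with IFNT, against -6.59, -6.77 and -6.67 with PBS. All 6 spots were called well above background, but their intensities of 23.5 to 32.9 were close to the lowest that the BES arrays called so, 12.4 to 24.0. The groups overlapped, and the change of 0.11 (SE 0.06, n = 3 against 3; 95% interval -0.03 to 0.26) did not pass the test (limma adjusted p 0.291). Under PBS, ALOX15 was 1320-fold higher in granulocytes than in BES (log2 10.37, SE 0.06; adjusted p 9.8e-19). With normexp background correction the log2 difference was 8.50, a smaller fold.

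CCL24 in BES had log2 levels of -6.03, -5.90 and -5.73 with IFNT, against -5.67, -5.35 and -5.85 with PBS. The groups overlapped, and the change of -0.26 (SE 0.14; 95% interval -0.60 to 0.08) did not pass the test (limma adjusted p 0.285). PBS sample 3 shared array row 2 with the IFNT samples, while PBS samples 1 and 2 lay in row 1. With array row as a covariate the change was -0.04 (adjusted p 0.955), a fit in which PBS sample 3 is the only PBS sample left for the comparison within a row. Under PBS, CCL24 was 29.5-fold higher in granulocytes than in BES (log2 4.88, SE 0.11; adjusted p 1.6e-13). With normexp background correction the log2 difference was 3.82.

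In BES, 2.29% of probes were called higher and 1.37% lower, 3.66% in all. The groups did not overlap for 33.5% of them, and for 21.1% every IFNT array lay below every PBS array. Exact permutation tests in BES could not go below 0.10, and gave p = 0.20 for ALOX15 and for CCL24 (two-sided, 3 against 3). Between granulocytes and BES under PBS, 46.7% of 12046 probes were called higher and 45% lower, 91.7% in all, so a called difference there is the common case. The size of a fold between cell types also carries the slide difference. In BES with PBS, the stromal markers SPARC (mean log2 level 6.79) and COL3A1 (6.15) were bright, and THY1 (-4.39) and PDGFRA (-5.76) were dim. The epithelial markers KRT8 (7.19), KRT19 (5.945) and CDH1 (3.50) were bright too, and MUC1 (-3.70), CLDN4 (-5.30) and KRT7 (-6.95) were dim. The name BES follows the labels, and the make-up of these cells was not tested.

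The responses of the cell types were then compared directly. For CCL24 the change was more negative in granulocytes than in BES by 1.36 (SE 0.16; 95% interval -1.71 to -1.005; limma adjusted p 5.8e-05). For ALOX15 the difference was -0.33 (SE 0.08; 95% interval -0.51 to -0.14; adjusted p 0.0120). That difference did not pass with normexp background correction (-0.13, adjusted p 0.354) or with GAPDH scaling (-0.05, adjusted p 0.661). In this contrast 14.8% of 12046 probes were called lower and 11.7% higher, 26.5% in all. The order of the levels was the same for ALOX15 and CCL24 in granulocytes, PBS above IFNT, with both BES groups far below and overlapping each other.

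**Figure D3:**
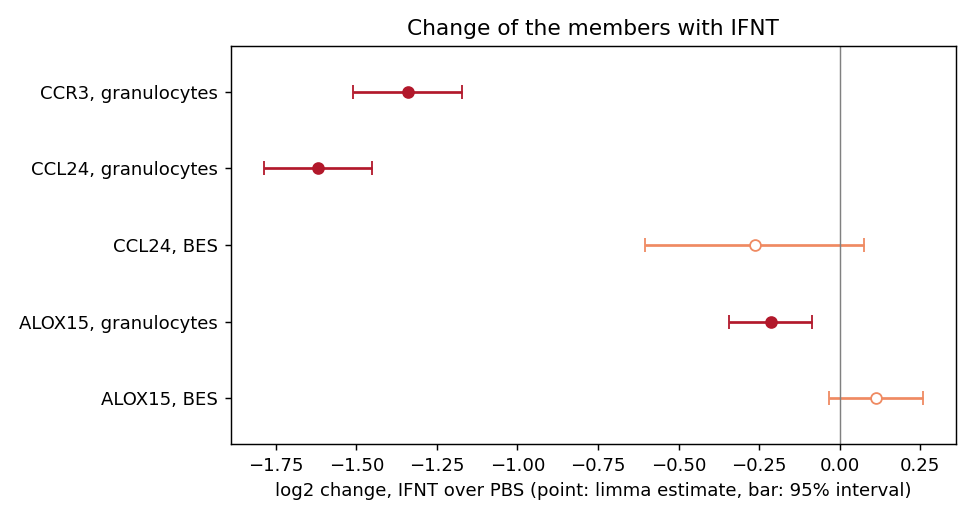
Log2 change with IFNT over PBS (point: limma estimate; bar: 95% interval; filled where adjusted p was below 0.05) for the probes that were tested in each cell type. The intervals of CCR3 and CCL24 in granulocytes lie below -1, that of ALOX15 between -0.34 and -0.09, and both BES intervals include 0.

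The other tested ligands of CCR3, CCL8 and CCL5, changed in opposite directions. Of 10 ligands listed, 4 had a named probe and 3 were tested in granulocytes, of which 2 fell and 1 rose. CCL8, a chemokine for monocytes that also binds CCR3 in human cells, was not well above background on any PBS array. It was at least 664-fold higher with IFNT, a bound that holds for the processed signal. CCL5, which attracts T cells and eosinophils, fell by 0.17 (SE 0.04; adjusted p 0.0161). CCL11, the founding eotaxin, was not well above background on any of the 14 arrays. Over all genes tested in granulocytes, 18.1% rose and 26.4% fell, 44.5% in all, and over all genes tested in BES 2.24% rose and 1.33% fell, 3.57% in all. In BES 2 of the ligands were tested, CCL24 and CCL5 (0.41, SE 0.14), and neither passed in limma, with an unadjusted p of 0.0261 for CCL5.

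Of the chemokine receptors described here beside CCR3, 21 in all, 8 were tested in granulocytes. Of these, 4 fell, beside 26.4% of all genes tested (median log2 change -0.26, against -0.05 over all genes). CXCR4, the receptor that retains leukocytes in bone marrow, fell by 2.02 (SE 0.10), further than CCR3. CCR1 fell by 0.61 (SE 0.18), the decoy-like receptor CCRL2 by 0.37 (SE 0.08) and the neutrophil receptor CXCR1 by 0.23 (SE 0.05). Not past the test were CCR4 (-0.28), CCR8 (-0.13), CCR7 (0.18) and the scavenging receptor ACKR1 (0.79, SE 0.56). In BES, 4 of these 21 were tested and 1 rose, ACKR4, which was not well above background on any PBS array and was at least 1.34-fold higher with IFNT. The others, CXCR5 (0.33, SE 0.23), ACKR1 (0.22, SE 0.20) and CCR8 (-0.01, SE 0.06), did not pass.

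The lipoxygenase and leukotriene genes around ALOX15 moved both ways in granulocytes. Of 24 listed, 11 were tested, with 2 rises, 4 falls and a median change of -0.09. These counts lie near the shares over all genes tested in granulocytes, 18.1% higher and 26.4% lower. PTGS2, the inducible cyclooxygenase, fell by 1.61 (SE 0.05). HPGD, which inactivates prostaglandins, fell by 0.51 (SE 0.08), the lipid peroxide reductase GPX4 by 0.31 (SE 0.06) and ALOX5AP, which presents arachidonic acid to ALOX5, by 0.24 (SE 0.04). EPHX2, an epoxide hydrolase, rose by 1.11 (SE 0.14), and the phospholipase PLA2G4A, which releases arachidonic acid from membranes, by 0.28 (SE 0.08).

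Of the lipoxygenases tested, ALOX15, ALOX5 and ALOX12B, only ALOX15 passed the test in granulocytes. The changes were -0.30 (SE 0.27) for ALOX5 and 0.08 (SE 0.07) for ALOX12B, ALOX12 was well above background on 1 of 8 granulocyte arrays, and ALOX15B on none. Also not past the test were the leukotriene hydrolase LTA4H (0.12, SE 0.06), the leukotriene receptor LTB4R (-0.09, SE 0.12) and the thromboxane synthase TBXAS1 (0.02, SE 0.05). In BES none of 10 tested genes of this list passed in limma, and none of them had an unadjusted p under 0.05.

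**Figure D4:**
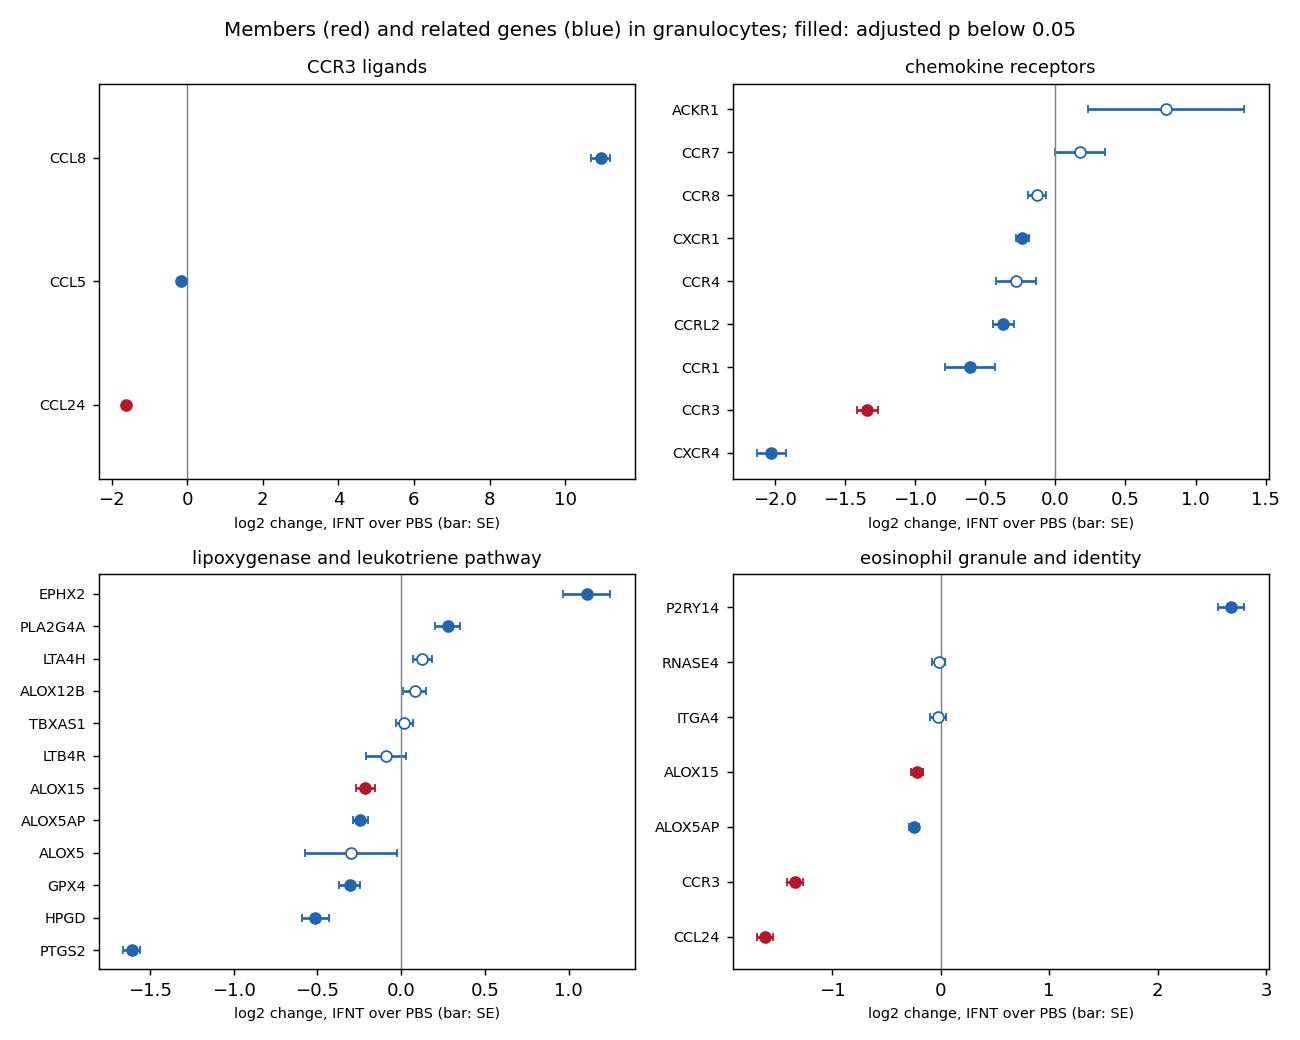
Log2 change in granulocytes (IFNT over PBS; bar: SE; filled where adjusted p was below 0.05) of the members in red and of 4 lists of related genes in blue. CCR3 and CCL24 sit low in their panels, ALOX15 in the middle of the lipoxygenase panel; the value of CCL8 depends on substitute signals at background and is shown as fitted.

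Signalling by interleukin 4 and 13 induces ALOX15 and CCL24 in human cells. Only RNA was measured here, not the signalling itself, and 8 of 19 listed genes linked to it were tested. Of these, 2 rose and 4 fell (median change -0.17), beside 18.1% higher and 26.4% lower over all genes tested in granulocytes. PPARG, a lipid-sensing nuclear receptor, fell by 1.35 (SE 0.05), the shared cytokine receptor chain IL2RG by 0.64 (SE 0.07) and the receptor chain IL13RA1 by 0.21 (SE 0.05). The scavenger receptor CD36 was called lower, but it was well above background on 1 of 4 IFNT arrays against 4 of 4 PBS arrays. The size of its fitted change of -1.40 therefore rests on IFNT signals that were mostly not well above background. The mannose receptor MRC1 (0.60, SE 0.19) and the transglutaminase TGM2 (0.23, SE 0.08) were the rises. IL4R (0.04, SE 0.12) and STAT6 (-0.14, SE 0.08) did not pass. Of the cytokines, IL5 was not well above background on any array, IL4 on no granulocyte array and IL13 on 1 of 8.

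Few other eosinophil genes could be read. Of 27 listed, 4 had a named probe, and none of the granule protein genes EPX, PRG2 and PRG3 nor the receptor gene IL5RA was among them. P2RY14, a nucleotide-sugar receptor found on several leukocytes, rose by 2.68 (SE 0.12), ALOX5AP fell as above, and RNASE4 (-0.02, SE 0.06) and the integrin chain ITGA4 (-0.03, SE 0.07) did not pass. No defining eosinophil granule gene could therefore be set beside CCR3. The summed signal of these 4 genes, each in multiples of the array's 75th percentile, was 5.99 to 6.97 with IFNT and 6.39 to 6.57 with PBS, and follows mainly the brightest probe, that of RNASE4. Their mean log2 level was -1.12 to -0.96 with IFNT and -1.71 to -1.53 with PBS, without overlap. The higher mean with IFNT follows P2RY14 alone, since the changes of ALOX5AP, RNASE4 and ITGA4 were all negative.

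In bulk RNA, fewer cells of a type and less RNA per cell cannot be told apart. The counts of each marker list stand beside 18.1% called higher and 26.4% called lower over all genes tested in granulocytes. Neutrophil markers were strong, with 15 of 15 named probes tested, 6 rises and 4 falls, and a summed signal of 843 to 924 with IFNT and 823 to 1031 with PBS. CATHL6 (1.54, SE 0.05), CATHL2 (1.33, SE 0.09), the IgG receptor FCGR3A (1.34, SE 0.09) and lactoferrin (LTF, 1.00, SE 0.06) were the rises with the smallest p. The falls were those of MMP9 (-0.56, SE 0.05), PTAFR (-0.54, SE 0.06), TREM1 (-0.44, SE 0.05) and CXCR1. The mean log2 level of the neutrophil list was 2.49 to 2.54 with IFNT and 2.17 to 2.36 with PBS. Monocyte and macrophage markers, 10 of them tested, gave 5 rises and 2 falls, with CD14 (1.03, SE 0.07) among the rises. CD68 fell by 0.36 (SE 0.05), and the other fall was that of CD36. Their summed signal, which follows the brightest probes, was 128 to 142 with IFNT and 140 to 152 with PBS. Their mean log2 level went the other way, at -0.41 to -0.32 with IFNT and -0.48 to -0.44 with PBS. Their part in the falls of CCR3 and CCL24 was not tested.

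Of the basophil and mast cell markers, KIT and ENPP3 were not well above background on any array. TPSB2, a mast cell tryptase, fell by 0.18 (SE 0.06), HDC, which makes histamine, did not pass (0.31, SE 0.13), and their summed signal was 0.103 to 0.117 with IFNT and 0.108 to 0.129 with PBS. Of 13 tested T and NK cell markers 3 rose and none fell, and of 5 B cell markers 1 rose and none fell. Among all genes tested in granulocytes the shares were 18.1% higher and 26.4% lower. Summed signals were 16.3 to 17.3 with IFNT and 15.9 to 17.7 with PBS for the T and NK cell markers, and 11.4 to 12.4 with IFNT and 10.7 to 11.3 with PBS for the B cell markers. Stromal markers gave 1 rise and epithelial markers 2 rises among 6 tested each, with no falls. Of 6 other CC chemokines tested, CCL2 (1.79, SE 0.14) and CCL4 (0.89, SE 0.09) rose, and CCL20 was at least 1.55-fold lower with IFNT, where no array was well above background. Small falls among the related genes share the limit seen for ALOX15: scaling on GAPDH adds 0.38 to each granulocyte change, which puts CCL5, CXCR1, CCRL2, ALOX5AP, GPX4, IL13RA1, TPSB2 and CD68 above 0. Called falls that stayed below 0 but became small were those of TREM1 (-0.058), HPGD (-0.135), PTAFR (-0.164), MMP9 (-0.185), CCR1 (-0.229) and IL2RG (-0.26). Whether these kept their calls with that scaling was not examined.

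The genes whose levels ran most like those of the members over the 14 arrays were found by Pearson's r among 4950 genes. They are a description: the arrays fall into 2 cell types on 2 slides, which alone gives high values, and for CCR3 the 6 BES values are substitute signals below background. For CCR3 they were the elastase CELA2A (r = 1.00), ENPP5, FAM8A1 and the beta-defensin DEFB4A, and all of them fell with IFNT in granulocytes. DEFB4A fell by 1.69 (SE 0.07) and CELA2A fell by 1.22 (SE 0.05). For CCL24 they were the phosphatase subunit PPP2CA, FBXO9, NINJ1 and XAB2, which also fell, and NINJ1 fell by 1.48 (SE 0.08). For ALOX15 they were the adhesion protein JAML (-0.24), the lectin FCN1 (-0.13, not past the test), the adaptor LAT2 (-0.10, not past the test) and the growth factor TGFA (-0.20). All these genes were chosen over arrays that include both granulocyte groups, so a fall shared with a member follows in part from the choice.

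Leaving out any 1 granulocyte sample kept all 3 calls, with changes of -1.40 to -1.29 for CCR3, -1.66 to -1.57 for CCL24 and -0.24 to -0.17 for ALOX15. The highest adjusted p among these fits was 1.9e-05 for CCR3, 5.5e-06 for CCL24 and 0.0423 for ALOX15.

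**Figure D5:**
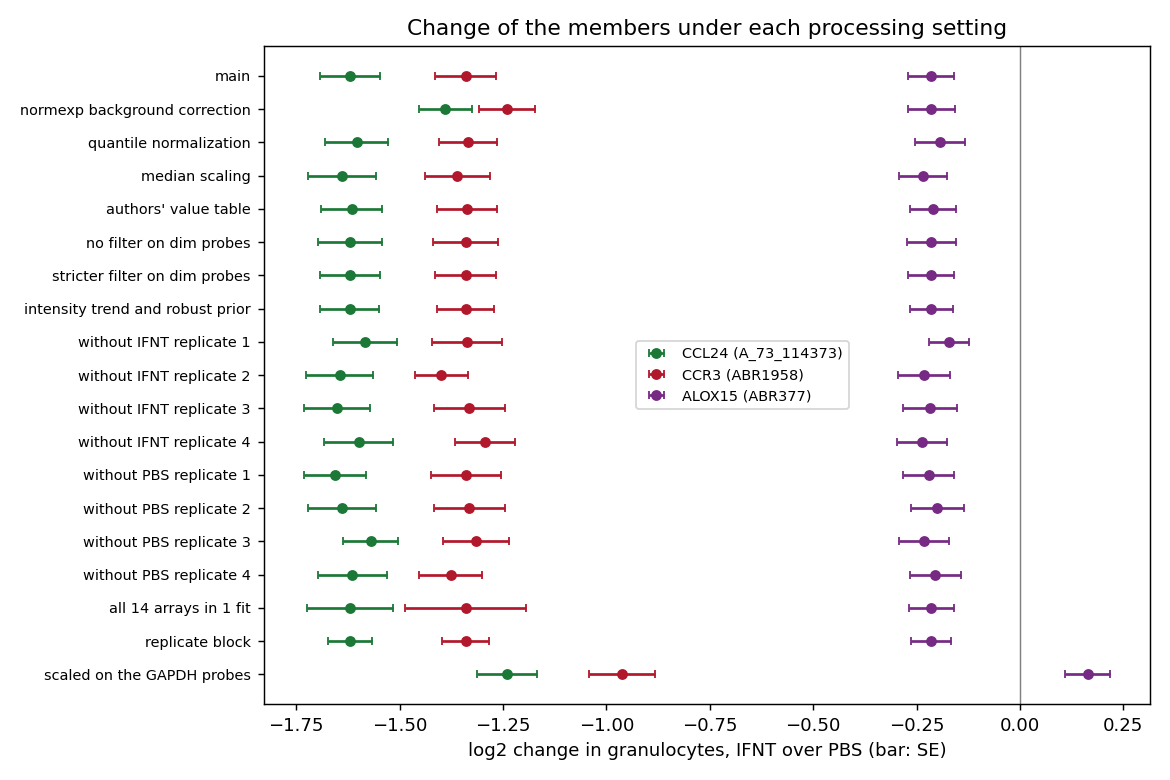
Log2 change in granulocytes (IFNT over PBS; bar: SE) of the 3 measured members under the reported setting (main), each alternative and with each sample left out. CCR3 stays between -1.40 and -0.96 and CCL24 between -1.66 and -1.24, while ALOX15 lies between -0.24 and 0.16 and is above 0 only with scaling on GAPDH.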

How the data were processed

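Each sample was hybridised to 1 Agilent custom bovine array. The scanner files hold fluorescence intensity per spot, made with Agilent Feature Extraction 9.5 per the submitters' processing notes, and the processed signal, already background-corrected by the software, was used as deposited. The authors' value table is on the log2 scale: each deposited column equalled the array's own processed signal in log2 less a constant. The groups came from the sample titles.

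From log2 of the processed signal, the array's 75th percentile over 15208 non-control probes was taken off. Non-uniform and population outlier spots were left out. Tests were run on probes well above background on at least 4 granulocyte or 3 BES arrays, or in either cell type for contrasts between them. Granulocyte arrays had 66.4% to 70.9% and BES arrays 71.6% to 76.1% of probes well above background, and the number of arrays limits the precision. Differences were tested in limma 3.58.1 under R 4.3.3 (two-sided, Benjamini-Hochberg over all probes tested, threshold 0.05), and the code was tested on simulated data. IFNT and PBS were compared within each cell type, and the responses and PBS levels in a fit of all 14 arrays. Each gene in a list was represented by its tested probe with the highest mean level. Symbols for 7021 probes were taken from the scanner annotation and the RefSeq table of ARS-UCD2.0. All member probes were named, every tested gene of the eosinophil, CCR3 ligand, chemokine receptor and lipoxygenase lists, 4 genes of like pattern per member, and up to 4 genes of other lists. Further genes of the interleukin, neutrophil and monocyte lists were named after their values were seen. The members and lists were chosen with earlier results of these data known. Alternatives changed the background correction, scaling, filter, prior, samples in the fit, replicate block or array row. Promoter motifs were not analysed here, for want of sequence. A chemokine receptor was left out of its list and is not reported here.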

Additional observations from a re-analysis of the deposited data

Results flagged for a closer look

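The responses to IFNT of CCL24 and ALOX15 differed between granulocytes and BES in a direct test (IFNT minus PBS in granulocytes, minus the same in BES). The fitted difference was -1.36 for CCL24 (SE 0.16) and -0.33 for ALOX15 (SE 0.08), and that of ALOX15 did not pass with normexp background correction (adjusted p 0.354) or scaling on the GAPDH probes (adjusted p 0.661). For CCR3 the fit gave -1.345 (SE 0.23, adjusted p 9.0e-04), but no BES array was well above background, so that value rests on substitute signals in BES and gives no measured difference. No granulocyte sample stood apart from its group for any of the 4 probes by Dixon's criterion.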

How the results depend on the processing

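Whether the replicate numbers of the labels pair the samples could not be settled with so few samples. Deviations from the group means correlated at 0.145, 0.185, 0.203 and -0.118 for same-numbered granulocyte samples. Differently numbered granulocyte samples gave -0.434 to 0.318. In BES the values were 0.047, 0.059 and -0.013 for same-numbered samples and -0.125 to 0.089 for the others. With the replicate block no call of a member changed (CCR3 -1.34, CCL24 -1.62, ALOX15 -0.21 in granulocytes). The SE of each of these changes was smaller with the block (for CCR3 0.0562 against 0.0738). In granulocytes the called probes numbered 1785 higher and 2848 lower, and 6696 and 436 when scaled on the GAPDH probes, which also turned ALOX15 to 0.16; in the contrast of the responses 1411 and 1786 became 3897 and 491, and ALOX15 was -0.0501 and not called (-0.13 with normexp, not called). In BES, 259 higher and 155 lower became 163 and 26 with no filter, 432 and 579 under a robust prior with an intensity trend, 512 and 44 with GAPDH scaling and 129 and 20 with array row as a covariate; normexp gave 322 lower and turned the uncalled ALOX15 change to -0.083. Leaving out 1 sample gave 159 to 303 higher and 30 to 322 lower in BES, the most without PBS sample 3 and the fewest falls without IFNT sample 3. CCR3 and CCL24 kept their calls in granulocytes under all 18 alternatives, with adjusted p of at most 6.5e-05 and 2.9e-05. Signals near background limit ALOX15 and CCL24 in BES and leave CCR3 there unmeasured.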
